A study of Arabidopsis thaliana with 12 samples.

Results

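The type-A response regulators of cytokinin signalling were described in Arabidopsis thaliana seedlings, in leaves and in roots, with a knockout of PDX1.3 (pdx1.3 ko) and of the wild type Col-0 (WT). They were taken as the 9 loci ARR3 (AT1G59940), ARR4 (AT1G10470), ARR5 (AT3G48100), ARR6 (AT5G62920), ARR7 (AT1G19050), ARR8 (AT2G41310), ARR9 (AT3G57040), ARR15 (AT1G74890) and ARR16 (AT2G40670), each through a probe set that names this locus alone. All 9 were measured, each by 1 such probe set, among 21363 loci that the array reports in this way. The genes were named by locus and not by a measured value, but the family was chosen with earlier results of these data known. The gene table used for names lists ARR5, ARR8 and ARR16 under the symbols RR5, RR3 and RR16, and the authors' table lists ARR8 as ATRR3.

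The samples form 4 groups of 3 arrays, pdx1.3 leaves, WT leaves, pdx1.3 roots and WT roots, which the series describes as biological replicates, so that the precision is limited by 3 arrays a group. The seedlings of all groups were of the Col-0 ecotype and had grown for 10 days on Murashige and Skoog medium with 1% sucrose and without vitamin B6, in 16 h light at 22 °C and 8 h darkness at 18 °C. The knockout is 1 mutant line, and no rescued line or second allele is among the samples, so that the locus and the line cannot be told apart. Groups follow the sample titles. The genotype entry among the sample characteristics gives the opposite genotype for all 12 samples and was not used.

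Cytokinin is bound by histidine kinase receptors (AHK), which pass phosphate through shuttle proteins (AHP) to response regulators. Type-B response regulators are transcription factors that switch on cytokinin target genes. Type-A response regulators are among the first of these targets, and as proteins with little more than a receiver domain they damp the signal, so that their transcript levels are widely read as a measure of cytokinin response. The family consists largely of closely related pairs, ARR3 with ARR4, ARR5 with ARR6, ARR7 with ARR15, ARR8 with ARR9, and ARR16 with ARR17. ARR7 and ARR15 are known for their part in the shoot meristem and the embryonic root, and ARR4 for its binding to phytochrome B. PDX1.3 belongs to another pathway, and its protein is a catalytic part of the synthase complex that plants use to build vitamin B6.

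The signal of PDX1.3 itself was 40.5, 38.2 and 50.5 in pdx1.3 leaves, against 591, 942 and 935 in WT leaves. It was 116, 95.8 and 82.1 in pdx1.3 roots, against 264, 282 and 282 in WT roots. The signals are MAS5 values on a linear scale that the authors had scaled to the same trimmed mean on every array. PDX1.3 was lower in pdx1.3 in both organs, with a log2 difference of -3.80 in leaves (adjusted p = 7.38e-07) and -1.37 in roots (adjusted p = 0.00243), the direction that the sample titles give. Where the mutation lies relative to the probes is not stated in the labels or files. Between 63.2 and 71.9% of probe sets were called present per array. The array farthest from its group was WT leaves 1, with a root mean square distance of 0.418 on the log2 scale to the mean of the other arrays of its group, and the next was pdx1.3 leaves 1 with 0.331, against 0.183 to 0.297 for the other 10 arrays. The signal ratio of the 3′ to the 5′ probe set of actin, which increases as RNA breaks down, ran from 3.12 (replicate 1) to 8.71 (replicate 3) in pdx1.3 leaves, against 5.6 (replicate 3) to 8.27 (replicate 1) in WT leaves. It ran from 2.97 to 6.59 in pdx1.3 roots, against 4.45 to 6.4 in WT roots. The highest ratio was on pdx1.3 leaves 3, which lay at a distance of 0.237, and the next highest on WT leaves 1. The lowest ratio among the leaf arrays was on pdx1.3 leaves 1. Whether the ratio bears on the distances was not tested. Every test was the empirical Bayes test of limma on log2(signal + 16), fitted to all 12 arrays and adjusted over 22746 probe sets by the Benjamini-Hochberg method, and a gene was called where the adjusted p was under 0.05.

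In leaves, ARR8 was the member that differed between the genotypes. Its signal was 51.1, 41.0 and 36.2 in pdx1.3 leaves, against 11.0, 22.5 and 22.5 in WT leaves. The lowest of the pdx1.3 leaves lay above the highest of the WT leaves, and the probe set was called present on all 12 arrays. ARR8 was higher in pdx1.3 leaves by 0.77 ± 0.18 on the log2 scale (SE, 95% interval 0.39 to 1.16), which is 1.71-fold, with an adjusted p of 0.021. The call did not hold under 6 of 24 alternatives, among them the fits without WT leaves 1 (0.60, adjusted p = 0.0536), without pdx1.3 leaves 1 (0.67, adjusted p = 0.0765) and without pdx1.3 leaves 2 (0.79, adjusted p = 0.0568). Without both leaf arrays numbered 1, a fit chosen after the data were seen, the difference was 0.50 (adjusted p = 0.121), and with the leaf arrays alone it was 0.77 (adjusted p = 0.0907). With this actin ratio in the fit it was 0.72 (adjusted p = 0.0365). In the authors' deposited table, ARR8 had a signed fold change of 2.44 in leaves and was scored as increased in 9 of 9 pairs of a pdx1.3 and a WT array. The array's annotation notes for the ARR8 probe set, alone among the 9, that 6 of its probes also match another cDNA.

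ARR9, the close relative of ARR8, had signals of 465, 368 and 361 in pdx1.3 leaves, against 149, 332 and 335 in WT leaves. These groups did not overlap either, but the gap between the nearest arrays was small and the low value of WT leaves 1 set much of the mean. The log2 difference was 0.60 ± 0.24 (SE, 95% interval 0.07 to 1.13) and did not pass the test (adjusted p = 0.18). Without both leaf arrays numbered 1 it was 0.12 (adjusted p = 0.705). Groups that do not overlap in leaves were found for 2 of the 9 members, ARR8 and ARR9, and for 24.6% of all probe sets.

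ARR7 had the most negative leaf difference of the 9. Its signal was 195, 367 and 271 in pdx1.3 leaves, against 335, 653 and 622 in WT leaves. WT leaves 2 and 3 lay above all pdx1.3 leaves, whereas WT leaves 1 lay among them. The log2 difference was -0.90 ± 0.30 (SE, 95% interval -1.55 to -0.25) with an adjusted p of 0.0958. ARR5 showed the same arrangement of arrays, with 43.2, 64.8 and 50.9 in pdx1.3 leaves, against 45.7, 103 and 108 in WT leaves. Its log2 difference was -0.51 ± 0.25 (SE, 95% interval -1.05 to 0.04, adjusted p = 0.274). ARR6, its close relative, had 35.1, 65.4 and 40.9 in pdx1.3 leaves, against 30.6, 88.1 and 86.2 in WT leaves. Again WT leaves 2 and 3 were the 2 highest of the 6 arrays and WT leaves 1 was the lowest, and the log2 difference was -0.36 ± 0.30 (SE, adjusted p = 0.565). In the fit without WT leaves 1, ARR7 was lower in pdx1.3 leaves by 1.20 (log2 -1.20, adjusted p = 0.0261) and ARR5 by 0.83 (log2 -0.83, adjusted p = 0.022), and both passed the test while ARR8 did not. Which members were called in leaves thus changed with this 1 array. Without both leaf arrays numbered 1, neither passed (ARR7 log2 -0.98, adjusted p = 0.0623, and ARR5 log2 -0.73, adjusted p = 0.0528).

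The other 4 members showed small differences in leaves. ARR4 had 238, 410 and 415 in pdx1.3 leaves, against 271, 342 and 268 in WT leaves, and the groups overlapped (log2 0.23, adjusted p = 0.592). ARR15 had 13.4, 29.6 and 25.9 in pdx1.3 leaves, against 20.3, 32.0 and 25.0 in WT leaves, and here too the groups overlapped (log2 -0.12, adjusted p = 0.796). ARR16 had 10.7, 9.22 and 10.3 in pdx1.3 leaves, against 9.37, 12.3 and 14.9 in WT leaves (log2 -0.11, 95% interval -0.29 to 0.07, adjusted p = 0.522). ARR3 was called absent on all 6 leaf arrays, and its leaf signals of 1.295, 5.34 and 2.18 in pdx1.3, against 0.405, 4.15 and 1.94 in WT, are not told from background. In all, 1 of 9 members was called in leaves, beside 7.22% of all probe sets, and 1 of 9 was called higher, beside 4.7%. The share of members called is near the share of all probe sets. At an unadjusted p under 0.05 there were 3 of 9, ARR7, ARR8 and ARR9, beside 21.2% of all probe sets. The members' median log2 difference was -0.11, against 0.01 over all probe sets, with 4 members above 0 and 5 below.

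**Figure D1:**
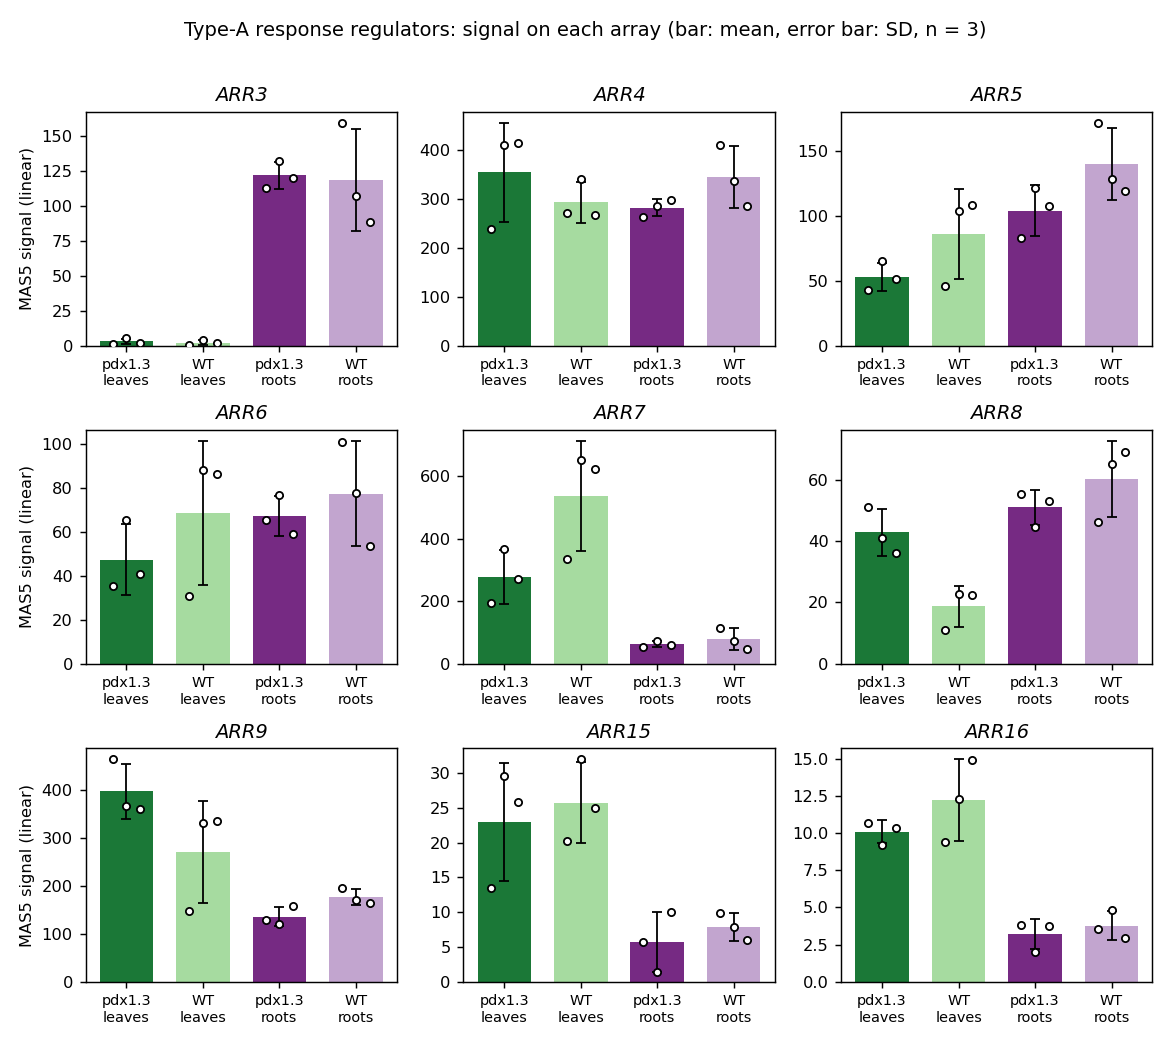
MAS5 signal (linear scale, each panel with its own axis from 0) of the 9 type-A response regulators in pdx1.3 leaves, WT leaves, pdx1.3 roots and WT roots. Circles are the arrays in the order of replicates 1 to 3, bars the means and error bars the SD (n = 3). ARR8 shows 36.2 to 51.1 in pdx1.3 leaves above 11.0 to 22.5 in WT leaves, and ARR3 is near 0 in leaves of both genotypes.

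In roots, none of the 9 members was called (0 of 9, beside 0.809% of all probe sets), and 0 of 9 had an unadjusted p under 0.05, beside 6.85%. The log2 differences lay between -0.38 (ARR5) and 0.07 (ARR3), with a median of -0.17 against 0.01 over all probe sets. Below 0 were 8 of 9 members, beside 10411 of 22746 probe sets. Among these members, ARR6, ARR7 and ARR16 each changed sign in 1 of the fits that left out 1 array. ARR15 and ARR16 were mostly called absent in roots. ARR9 was the member whose root groups did not overlap, with 130, 120 and 159 in pdx1.3 roots, against 195, 171 and 165 in WT roots. Its log2 difference was -0.35 ± 0.24 (SE, 95% interval -0.88 to 0.18, adjusted p = 1), and groups that do not overlap were found for 11.1% of all probe sets in roots. ARR8, the member called in leaves, had 55.4, 44.6 and 53.1 in pdx1.3 roots, against 46.1, 65.2 and 69.1 in WT roots. The genotypes overlapped there, and the log2 difference was -0.17 ± 0.18 (SE, 95% interval -0.56 to 0.21).

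ARR5 had 82.5, 121 and 108 in pdx1.3 roots, against 171, 129 and 119 in WT roots, and pdx1.3 roots 2 lay above WT roots 3 (95% interval of the log2 difference -0.92 to 0.17). ARR7 had 53.8, 71.9 and 60.7 in pdx1.3 roots, against 116, 71.2 and 48.3 in WT roots, so that the WT arrays enclosed those of pdx1.3. ARR6 was arranged in the same way, with 65.3, 76.7 and 58.8 in pdx1.3 roots, against 101, 77.5 and 53.5 in WT roots. Replicate 1 was the highest WT root array for 7 of the 9 members, and replicate 3 the lowest for 8 of 9. ARR4 had 263, 285 and 297 in pdx1.3 roots, against 411, 337 and 286 in WT roots, and ARR3 had 113, 133 and 120, against 159, 107 and 88.9, with overlap in both. ARR15 was called absent or marginal on all 6 root arrays, and ARR16 was called present on 1 of them, WT roots 2.

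The summed level of leaf markers in roots was lower in pdx1.3, without overlap of the genotypes. Summed over the 7 measured markers of green tissue, the signal was 727 to 1101 in pdx1.3 roots, against 1332 to 1640 in WT roots. Of these 7 markers 1 was called lower in pdx1.3 roots, beside 0.312% of all probe sets. This was LHCB5, a protein of the light-harvesting antenna (log2 -1.04, adjusted p = 0.0229), and the other 6 did not pass. GLK1, a regulator of chloroplast development, was called absent on all 6 root arrays. In WT, these markers summed to 31189 to 36658 in leaves, against 1332 to 1640 in roots. Of 8 root markers 1 was called lower in pdx1.3 roots, beside the same 0.312%. This was the nitrate transporter gene NRT1.5 (log2 -0.91, adjusted p = 0.0221). The 8 root markers summed to 5026 to 5114 in pdx1.3 roots, against 4853 to 6240 in WT roots. Their part in the root values of the members was not tested. In leaves no marker of the 4 lists (leaf, root, shoot apex and root tip) was called. The root markers summed to 882 to 1395 in pdx1.3 leaves, against 886 to 1236 in WT leaves. Most of that sum was 1 gene, PYK10, with 624 to 1051 in pdx1.3 leaves and 676 to 936 in WT leaves. The root tip markers summed to 37.0 to 44.9 in pdx1.3 leaves, against 24.8 to 33.5 in WT leaves, without overlap. Of these, only SHR was called present in leaves. The shoot apex markers summed to 39.1 to 48.2 in pdx1.3 roots, against 60.1 to 70.8 in WT roots, again without overlap. There only KNAT1 was called present. Root tip markers in roots and shoot apex markers in leaves overlapped. The bearing of these sums on the members was not tested. In whole organs, fewer cells that express a gene and less RNA per cell cannot be told apart.

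The genotype difference was then compared between the organs, as the leaf difference minus the root difference. No member was called (0 of 9, beside 1.87% of all probe sets), and 2 of 9 had an unadjusted p under 0.05, ARR8 and ARR9, beside 13.2%. For ARR8 the difference of differences was 0.95 ± 0.25 (SE, 95% interval 0.40 to 1.49, adjusted p = 0.0842). For ARR9 it was 0.94 ± 0.35 (SE, 95% interval 0.19 to 1.70, adjusted p = 0.232). ARR8 is therefore not shown to respond differently in leaves and roots at this threshold, though with only probe sets called present on at least 3 arrays it passed narrowly (adjusted p = 0.0497). For ARR7 the value was -0.68 ± 0.42 (SE, adjusted p = 0.559), and for the other 6 members the adjusted p was 0.518 or higher.

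**Figure D2:**
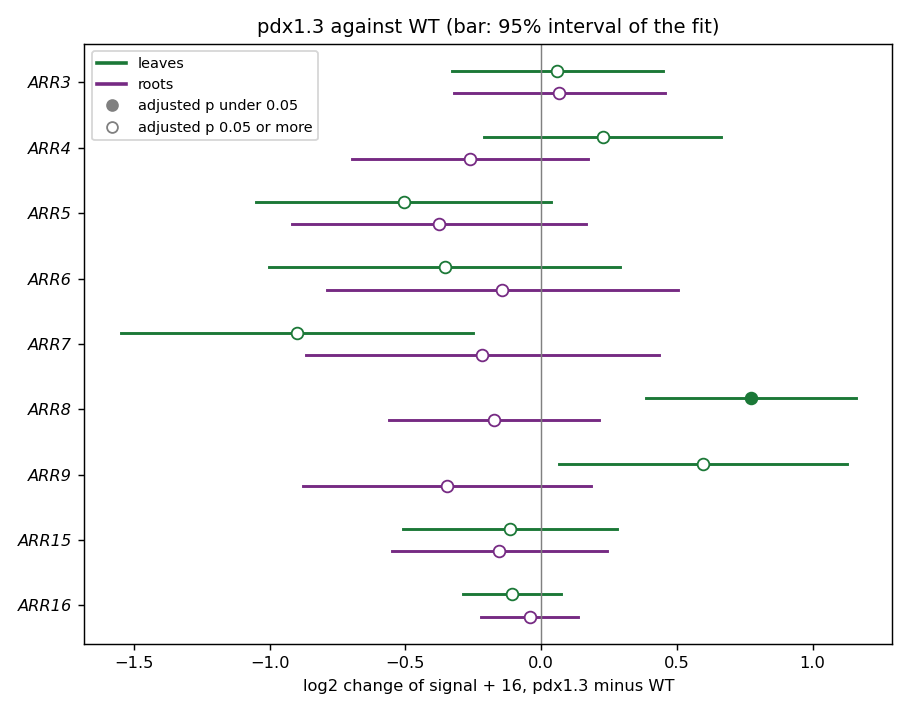
Log2 difference of signal + 16, pdx1.3 minus WT, for each member in leaves (upper line) and roots (lower line), with the 95% interval of the fit. The filled point is the 1 call, ARR8 in leaves at 0.77, and the leaf intervals of ARR7 (-1.55 to -0.25) and ARR9 (0.07 to 1.13) also leave out 0, although neither passed after adjustment.

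Leaves and roots differed for most members. ARR3 was a root transcript in these seedlings. It had 113, 133 and 120 in pdx1.3 roots and 159, 107 and 88.9 in WT roots, each set beside leaf arrays called absent. The log2 difference of leaves minus roots was -2.87 in pdx1.3 (95% interval -3.26 to -2.48, adjusted p = 1.93e-08). In WT it was -2.86 (95% interval -3.25 to -2.47, adjusted p = 2.24e-08). The leaf signal was also held at the lowest signal called present on each array or its own value, whichever was higher. The estimate was then 7.11-fold in pdx1.3 and 6.94-fold in WT, on the scale of signal + 16. That floor is not a detection limit of this probe set, so these are not lower bounds. Its close relative ARR4 was called present on all 12 arrays and did not differ between the organs by the test in either genotype (log2 leaves minus roots 0.27 in pdx1.3, 95% interval -0.16 to 0.71, and -0.22 in WT, 95% interval -0.65 to 0.22). Without pdx1.3 leaves 1, the difference in pdx1.3 was 0.53 and passed (adjusted p = 0.0157).

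ARR7 was higher in leaves than in roots of both genotypes. Its 195 to 367 in pdx1.3 leaves compared with 53.8 to 71.9 in pdx1.3 roots (log2 1.87 ± 0.30, SE, adjusted p = 0.000132, 3.66-fold). Its 335 to 653 in WT leaves compared with 48.3 to 116 in WT roots (log2 2.55 ± 0.30, SE, adjusted p = 9.1e-06, 5.87-fold). ARR15, its close relative, was also higher in leaves, with a log2 difference of 0.84 in pdx1.3 (adjusted p = 0.00152) and 0.80 in WT (adjusted p = 0.00228). In WT roots its signal was 9.88, 7.85 and 5.95 with an absent call each time. The WT difference of ARR15 was an estimated 1.74-fold (95% interval of the log2 difference 0.40 to 1.19), which is not a lower bound. In pdx1.3 roots its signal was 5.67, 1.47 and 10.0, and 1 of the 3 arrays was marginal. ARR16 was higher in leaves as well, by an estimated 1.36-fold in pdx1.3, where all root arrays were absent (log2 0.44, 95% interval 0.26 to 0.62, adjusted p = 0.000481). In WT leaves ARR16 was 1.42-fold above WT roots (log2 0.51, adjusted p = 0.000172), and 1 of the 3 WT root arrays was called present. Both ARR16 folds are on the scale of signal + 16, which shrinks them at such low signals. The mean signals were 10.1 in pdx1.3 leaves against 3.19 in pdx1.3 roots, and 12.2 in WT leaves against 3.75 in WT roots.

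ARR5 was on the root side, with log2 differences of -0.80 ± 0.25 in pdx1.3 (SE, adjusted p = 0.016) and -0.67 ± 0.25 in WT (SE, adjusted p = 0.0399). The WT call was lost under several settings, for example without WT leaves 1 (log2 -0.34, adjusted p = 0.158) and without WT roots 1 (log2 -0.53, adjusted p = 0.145). In pdx1.3 it was lost without pdx1.3 leaves 1 (adjusted p = 0.0588) or without pdx1.3 roots 2 (adjusted p = 0.062). ARR6, its close relative, lay in the same direction without passing, at -0.42 in pdx1.3 (adjusted p = 0.264) and -0.21 in WT (adjusted p = 0.602).

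ARR8 and ARR9 were called for an organ difference in 1 genotype each. ARR8 showed no called difference between leaves and roots of pdx1.3 (log2 -0.19, 95% interval -0.58 to 0.19, adjusted p = 0.397), and its signals of 36.2 to 51.1 in leaves overlapped with 44.6 to 55.4 in roots. In WT it was lower in leaves, with 11.0 to 22.5 against 46.1 to 69.1 in roots (log2 -1.14 ± 0.18, SE, adjusted p = 0.000122). ARR9 was higher in leaves of pdx1.3, with 361 to 465 against 120 to 159 in roots (log2 1.44 ± 0.24, SE, adjusted p = 0.00022, 2.72-fold). In WT its log2 difference was 0.50 (adjusted p = 0.108), and it passed without WT leaves 1 (0.86, adjusted p = 0.000363) or with each array centred on its median (0.66, adjusted p = 0.0365). These gaps between the genotypes are the differences of differences given above, which did not pass.

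In pdx1.3, 6 of 9 members were called between leaves and roots, beside 54.7% of all probe sets. ARR7, ARR9, ARR15 and ARR16 were higher in leaves (4 of 9, beside 22.2%), and ARR3 and ARR5 were lower (2 of 9, beside 32.4%). In WT, 6 of 9 were called, beside 52.5% of all probe sets, with ARR7, ARR15 and ARR16 higher in leaves (3 of 9, beside 20.9%) and ARR3, ARR5 and ARR8 lower (3 of 9, beside 31.7%). The shares of members called were thus close to those of the array as a whole. The members called in both genotypes were ARR3, ARR5, ARR7, ARR15 and ARR16, each in the same direction. The organ comparisons of pdx1.3 and of WT share no array, but both tests use the variance fitted to all arrays together. The calls in the genotypes are therefore not independent. Without pdx1.3 leaves 3, for example, the WT difference of ARR5 stayed at log2 -0.67 but was no longer called (adjusted p = 0.0512).

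**Figure D3:**
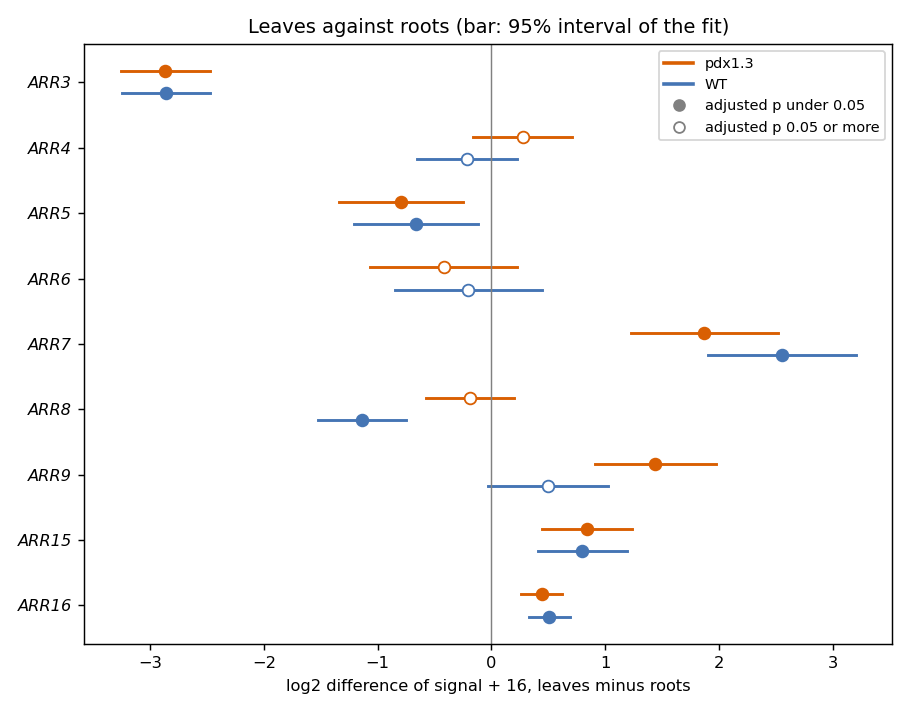
Log2 difference of signal + 16, leaves minus roots, for each member in pdx1.3 (upper line) and WT (lower line), with the 95% interval of the fit and filled points for calls. ARR3 lies near -2.9 in both genotypes on this scale (-2.87 and -2.86), ARR7 at 1.87 and 2.55, and ARR8 at -0.19 and -1.14.

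Over the 12 arrays, and within leaves, some members varied together from array to array. After the mean of each organ was taken off, the correlation of log2(signal + 16) over the 12 arrays was 0.90 between ARR5 and ARR6, 0.91 between ARR5 and ARR7, and 0.89 between ARR6 and ARR7. Within the 6 leaf arrays these values were 0.96, 0.94 and 0.87, and within the 6 root arrays 0.70, 0.82 and 0.95. In leaves, ARR5, ARR6 and ARR7 were all high on WT leaves 2 and 3 and all low on pdx1.3 leaves 1. ARR8 and ARR9 formed another pair, at 0.80 over the 12 arrays, 0.90 within leaves and 0.26 within roots. Both were highest on pdx1.3 leaves 1 and lowest on WT leaves 1 among the leaf arrays. Between these sets the values over the 12 arrays were lower, from -0.55 for ARR7 with ARR8 to 0.32 for ARR6 with ARR9. Within roots this grouping did not hold, since ARR9 correlated with ARR5 at 0.71 and with ARR7 at 0.48, above its 0.26 with ARR8. Over all 36 pairs the correlation ran from -0.55 to 0.91 with a median of 0.35. These values describe 12 arrays that share their scaling, include the genotype difference and rest partly on the leaf arrays numbered 1. WT leaves 1 was the lowest WT leaf array for 8 of 9 members, and pdx1.3 leaves 1 the lowest of its group for 6 of 9.

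**Figure D4:**
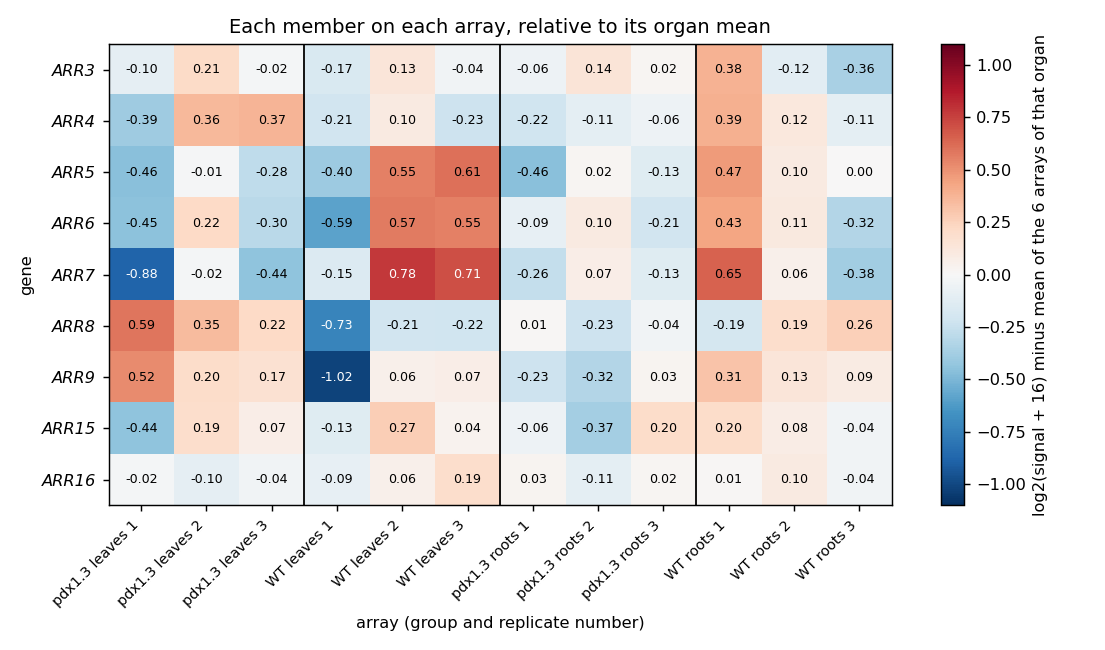
Log2(signal + 16) of each member on each array minus the mean of the 6 arrays of that organ, with the arrays of pdx1.3 leaves, WT leaves, pdx1.3 roots and WT roots from left to right. ARR5, ARR6 and ARR7 share high values on WT leaves 2 and 3 (0.55 to 0.78), and ARR8 and ARR9 share the lowest leaf values on WT leaves 1 (-0.73 and -1.02).

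The genes most like ARR8 in the same measure, among 15717 single-locus probe sets called present on at least 6 arrays, were AT1G01320 (r = 0.97), PDV1, which encodes a plastid division protein (r = 0.96), and SPA4, which encodes a repressor of light signalling (r = 0.95). For ARR7 they were AGP15, which encodes an arabinogalactan peptide (r = 0.97), AT3G46630 (r = 0.94) and MSRA5 (r = 0.94). For ARR9 they were AT2G24550 (r = 0.95), the expansin gene EXPA8 (r = 0.94) and BMY3, a gene of the beta-amylase family (r = 0.94). For ARR5 they were AT1G23830 (r = 0.96), RBX1, a component of ubiquitin ligases (r = 0.95), and AT5G35100 (r = 0.94). The highest of so many values over 12 arrays is high by selection, and each is a description.

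Over 7 lists of other cytokinin pathway genes, 3 of 49 measured genes (6.12%) were called in leaves, close to the 7.22% of all probe sets. Among them, none of the 3 receptor genes was called. AHK4 had the smallest p of them, with 16.9, 19.6 and 14.8 in pdx1.3 leaves, against 9.49, 10.1 and 8.16 in WT leaves (log2 0.39, adjusted p = 0.0848), and these arrays did not overlap. Of the 6 phosphotransfer genes, 1 was called lower in leaves. This was AHP3, with 90.5, 100.3 and 112 in pdx1.3 leaves, against 132, 153 and 164 in WT leaves (log2 -0.50 ± 0.14, SE, adjusted p = 0.0441). The call of AHP3 held in 3 of the 12 fits that left out 1 array. None of the 8 measured type-B regulators of 11 was called in leaves, the smallest p being that of ARR2 (log2 0.33, adjusted p = 0.311), and none of the 5 measured cytokinin response factors of 6, the smallest being CRF6 (log2 -0.49, adjusted p = 0.185). ARR17, the relative of ARR16 that is not among the 9 members, was called absent on all 12 arrays.

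Genes that make and break down the hormone are the other side of the pathway. Of 19 synthesis genes, 1 was called higher and 1 lower in leaves, both members of the LOG family, whose enzymes release the active hormone from its nucleotide. LOG5 had 24.0, 30.8 and 28.3 in pdx1.3 leaves, against 15.5, 6.98 and 8.09 in WT leaves (log2 0.75 ± 0.15, SE, adjusted p = 0.00872). With the leaf arrays alone its call was lost (adjusted p = 0.0592). LOG8 had 188, 186 and 195 in pdx1.3 leaves, against 384, 326 and 330 in WT leaves (log2 -0.82 ± 0.11, SE, adjusted p = 0.000801). Both genes were thus separated without overlap, in opposite directions. None of the 6 measured cytokinin oxidase genes of 7, which break the hormone down, was called in leaves, the smallest p being that of CKX6 (log2 -0.34, adjusted p = 0.0984).

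In roots no gene of these 7 lists was called. LOG5 came nearest, with 39.4, 28.4 and 35.9 in pdx1.3 roots, against 14.5, 19.4 and 13.1 in WT roots (log2 0.67 ± 0.15, SE, adjusted p = 0.0601). The genotypes did not overlap, and LOG5 passed under 6 of 24 alternatives, among them median centring (adjusted p = 0.041), a constant of 64 (adjusted p = 0.0306), the filter on present calls (adjusted p = 0.0297) and the fit without WT leaves 1 (adjusted p = 0.027). CKX4 had the smallest p of its list, with 14.9, 17.9 and 26.3 in pdx1.3 roots, against 45.9, 28.8 and 29.3 in WT roots (log2 -0.50, adjusted p = 0.483). Among the other lists the smallest p belonged to AHK3 (log2 0.25), AHP3 (log2 -0.21), ARR2 (log2 0.31), ARR17 (log2 0.03) and CRF5 (log2 -0.26), with adjusted p between 0.801 and 1.

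**Figure D5:**
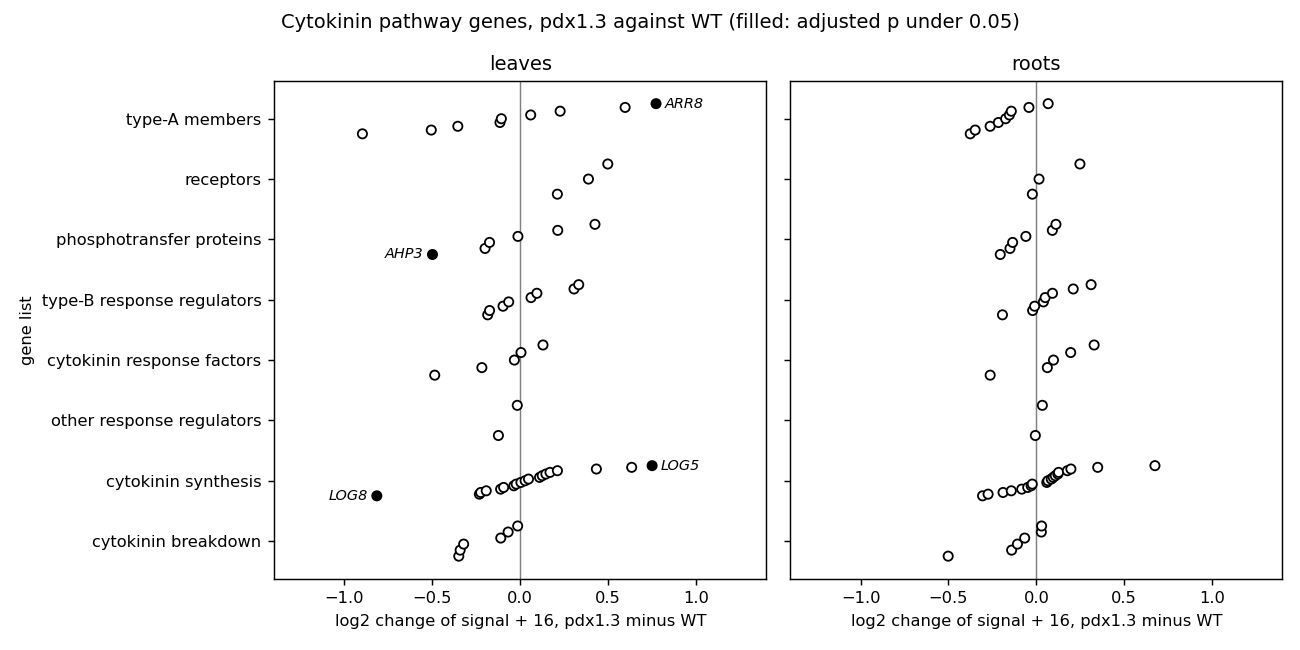
Log2 difference of signal + 16, pdx1.3 minus WT, of the 9 type-A members and of the genes in 7 lists of the cytokinin pathway, in leaves (left) and roots (right). Each circle is a gene, and the filled circles are the calls, ARR8, AHP3, LOG5 and LOG8 in leaves at 0.77, -0.50, 0.75 and -0.82, with none in roots.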

How the data were processed

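RNA of 12 samples was hybridised to ATH1 arrays, after labelling of 500 ng of total RNA with biotin, per the labels' protocols. The deposited values are MAS5 signal intensities from GCOS, 1 for each probe set and array, each with a call of present, marginal or absent, per the file headers. The labels name no versions of these tools. The same intensities were deposited in a second table, from which 12 of 108 member values differed by more than 0.051, at most by 0.0818. The deposited quality block gives the actin 3′/5′ ratio per array. A signed fold change, a score from GCOS, and the number of the 9 array pairs with a change call were taken from the authors' deposited table. The pairs share their arrays and are not independent.

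No further normalization was applied. A constant of 16 was added before log2, so changes of dim genes are understated. Fold values from the fits are on this scale and are not ratios of the printed signals. Group means were fitted to all 12 arrays with limma 3.58.1 (R 4.3.3) and a variance trend, and p-values were adjusted over 22746 probe sets, after 64 controls were left out. The scripts were tested on simulated data. Of 22810 probe sets, 21526 name 1 locus, and 21261 of these were found in RefSeq's gene table for the assembly TAIR10.1. The files name no genome build, so no coordinates are printed, and promoter and protein sequences were not analysed here.

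The members and gene lists were chosen with earlier results of these data known. Named were all members, in each pathway list the called genes (at most 3 by p) or else the gene of smallest p in each organ, and the 3 genes most like each of the 2 members of smallest p in each organ. Alternatives covered normalization, constants of 1 and 64, a filter on present calls, the second table, variance models, the actin ratio, 1 organ alone, the replicate number as a block, and leaving out arrays. No probe set's level was set against that of another.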

Additional observations from a re-analysis of the deposited data

Results flagged for a closer look

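The genotype difference in leaves was set against that in roots for the members, the named pathway genes, PDX1.3 and the 2 markers called in roots. ARR9 differed in opposite directions without overlap of the arrays in either organ, higher in all 3 pdx1.3 leaf arrays and lower in all 3 pdx1.3 root arrays than in WT. Its difference of differences was 0.94 on the log2 scale, and the test of it did not pass (adjusted p = 0.232). Neither the leaf nor the root difference of ARR9 passed on its own. LOG8 likewise differed in opposite directions without overlap, with 188, 186 and 195 in pdx1.3 leaves against 384, 326 and 330 in WT leaves, and 218, 197 and 223 in pdx1.3 roots against 169, 166 and 155 in WT roots. Its difference of differences was -1.17 (adjusted p = 0.00296), and the call held whichever of the 12 arrays was left out. On its own the leaf difference of LOG8 was called and the root difference was not. PDX1.3, the mutated gene, was lower in both organs of pdx1.3, and more so in leaves, with a difference of differences of -2.43 (adjusted p = 0.000665). The root marker NRT1.5 had 49.7, 28.2 and 34.9 in pdx1.3 leaves against 25.1, 33.4 and 37.3 in WT leaves, and 505, 583 and 647 in pdx1.3 roots against 1073, 1015 and 1203 in WT roots, with a difference of differences of 1.06 (adjusted p = 0.0368).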

How the results depend on the processing

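The number of members called in leaves was 1 (ARR8), and it was 0 in the fit of leaf arrays alone, with the replicate number as a block, without both leaf arrays numbered 1, and where at least a 2-fold change was also asked for. Leaving out 1 array in turn gave 0 to 2. The count 2 came without WT leaves replicate 1 (ARR5 and ARR7), and the count 0 without pdx1.3 leaves replicate 1 or replicate 2. Replicate numbers were not taken to pair the samples, since deviations of same-numbered pdx1.3 and WT arrays of an organ correlated at -0.21 to -0.01, and those of same-numbered leaf and root arrays of a genotype at -0.17 to 0.35, with 2 of 6 above 0.1. With the replicate block, ARR8 kept its difference of 0.77 (adjusted p = 0.0823), the called probe sets over the array numbered 971 in leaves against 1642 without it, and the AHP3 and LOG5 calls were lost as well (adjusted p = 0.112 and 0.0529). In roots the count of members stayed at 0 under all alternatives run, while LOG5 passed under 6 of 24. The interaction count was 1 (ARR8) with probe sets present on at least 3 arrays. Between leaves and roots the counts were 3 in pdx1.3 and 3 in WT where at least 2-fold was asked for, and 5 to 6 in each genotype when 1 array was left out. Values near 0 changed sign. Median centring gave -0.0075 for ARR3 in leaves and -0.0096 for the ARR15 interaction, a constant of 1 gave 0.29 for the ARR3 interaction, and a constant of 64 gave -0.0026 for the ARR15 interaction. Without both leaf arrays numbered 1, ARR6 between WT leaves and WT roots was 0.18. Leaving out 1 array gave, in leaves, -0.0298 to 0.137 for ARR3 and -0.241 to 0.0745 for ARR15. In roots it gave -0.10 to 0.27 for ARR3, -0.34 to 0.0364 for ARR6, -0.46 to 0.0556 for ARR7, -0.0728 to 0.0024 for ARR16 and -0.0117 to 0.0573 for ARR17. For the interaction it gave -0.22 to 0.15 for ARR3, -0.46 to 0.0481 for ARR5, -0.11 to 0.23 for ARR15 and -0.14 to 0.0027 for ARR16, and between WT leaves and WT roots -0.40 to 0.18 for ARR6. The cause of these changes was not tested. ARR3 was called absent in leaves. In roots ARR15 was called absent or marginal, and ARR16 was called absent on all arrays but WT roots 2. With 3 arrays a group, small differences of these genes in those organs were not detectable.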
